A study of Sus scrofa with 32 samples.

Results

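The comparison described here sets loin muscle of Landrace x Dapulian (LDPL) cross pigs against loin muscle of Dapulian (DPL) pigs, in 16 of the 32 RNA sequencing libraries of a pig breed study. Its members are the 8 libraries that the labels name LDPL and the 8 that they name DPL. Dapulian is an indigenous Chinese breed and Landrace is a commercial breed, and the cross carries alleles of both. All animals are labelled wild type and 6 months old, the tissue is the longissimus dorsi, and the pigs of all breed groups are stated to have been kept and fed alike. The other 16 libraries, 8 from Landrace (L) and 8 from Duroc x Landrace x Dapulian (DLDPL) pigs, entered the model for its estimate of the spread between libraries. Sex, batch and date are not in the labels, which also do not say which parent of the cross was the Landrace. The labels number LDPL from 4 to 24 and DPL from 7 to 30, with mostly lower numbers in LDPL. What the numbers stand for is not stated, and an effect of their order was not tested. The stated purpose of the series is the variation of muscle transcripts between breeds.

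Skeletal muscle fibres make ATP either by glycolysis, which is fast and ends in lactate, or in mitochondria, where pyruvate and fatty acids feed the TCA cycle and the respiratory chain. Respiratory chain complexes are built from subunits encoded by nuclear genes and a few encoded by the mitochondrial genome, and fibres differ in how much of this machinery they hold. Slow fibres are rich in mitochondria, whereas the fast fibres that make up most of the pig loin rely more on glycolysis. Interferon-stimulated genes are a further module, found in all tissues, that is switched on together by interferon signalling through transcription factors such as IRF9.

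Depth, rounded to 10000 reads, was 23740000 to 25770000 counted reads per library in LDPL and 21730000 to 29740000 in DPL. The 13 mitochondrially encoded genes took 15.8% to 30.0% of the reads in LDPL (median 23.3%) and 22.2% to 37.3% in DPL (median 32.9%). The mean share was 22.9 ± 4.4% in LDPL and 31.3 ± 5.6% in DPL (SD, n = 8 each), a difference of -8.39 percentage points (two-sided exact permutation test, p = 0.00653, adjusted p = 0.0131 over 2 library measures). The groups overlapped in this share, with LDPL 4 the highest of the cross and DPL 11 the lowest of the Dapulian libraries. Coverage is deposited per gene with a percent sign and was taken as the part of the gene's length that holds reads, although 12 values in the files exceed 100, which that reading does not allow. It had a median over long genes of 94.7 ± 0.67% in LDPL and 94.1 ± 1.03% in DPL (p = 0.202 by the same exact test, adjusted p = 0.202). The 4 libraries of lowest coverage were LDPL 4 at 93.11% and DPL 16, 21 and 23 at 93.435%, 92.905% and 92.55%. These 4 were also the libraries of highest mitochondrial share in their groups, at 30.0% for LDPL 4 and 37.3%, 36.1% and 35.3% for DPL 16, 21 and 23. Without them, an alternative chosen after the values were seen, the share was 21.9 ± 3.56% in LDPL (SD, n = 7) and 28.4 ± 4.99% in DPL (SD, n = 5), a difference of -6.45 points (two-sided exact permutation test, p = 0.0253). Of 12 marker genes of the labelled tissue, 5 had a symbol in the files (ACTA1, NEB, DES, CASQ1 and MYOT), and they summed to 68475 to 96176 CPM in LDPL and 44201 to 94359 CPM in DPL. None of these 5 differed past the threshold.

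**Figure D1:**
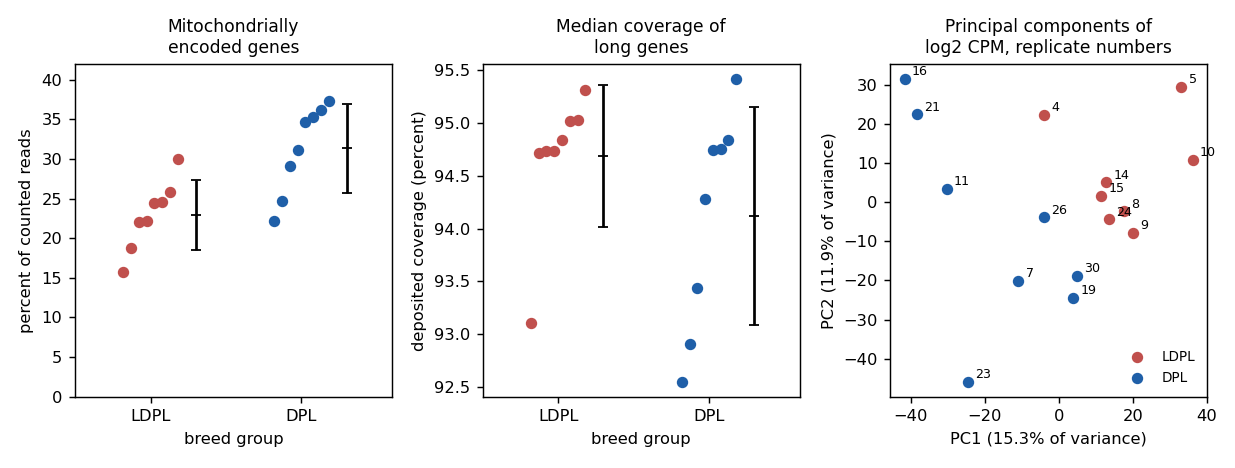
Library measures of the 8 LDPL and 8 DPL libraries. The left and middle panels give, per library, the percent of counted reads in mitochondrially encoded genes and the median over long genes of the deposited coverage in percent, with the mean and SD in black, and the middle axis does not start at 0. The right panel plots the first principal components of log2 CPM (15.3% and 11.9% of the variance) with replicate numbers. The mitochondrial share is 22.9% on average in LDPL and 31.3% in DPL, with overlap, and DPL 16, 21, 23 and LDPL 5 and 10 lie at the edges of the right panel.

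Of 12821 genes tested by edgeR's quasi-likelihood test with Benjamini-Hochberg adjustment, 366 were called at an adjusted p under 0.05, which is 2.85% of those tested. Of these, 166 were higher in LDPL than in DPL (1.29%) and 200 were lower (1.56%). The changes were mostly small: the median size among called genes was 0.68 on the log2 scale, and 86 genes differed at least 2-fold, 45 of them higher and 41 lower in LDPL. The median log2 change over all tested genes was -0.0016. Log2 changes are LDPL minus DPL and carry their standard error (n = 8 libraries each). Among the genes called lower in LDPL were nuclear genes of the respiratory chain, of fatty acid oxidation and of the mitochondrial ribosome, with a handful of interferon-stimulated genes. Among those called higher were enzymes of glycolysis, fast fibre proteins and collagens. The number of calls depended on single libraries: it was 151 without LDPL 5, 174 without LDPL 10 and between 234 and 442 without any other single library. Of the 366 genes, 122 were called in all 16 such fits, 57 of them higher and 65 lower in LDPL. On the RPKM scale limma called 133 genes higher and 51 lower in LDPL with a pseudocount of 1, and 201 higher and 53 lower with a pseudocount of 0.1, where the median of all genes moved to 0.065 and 0.106.

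**Figure D2:**
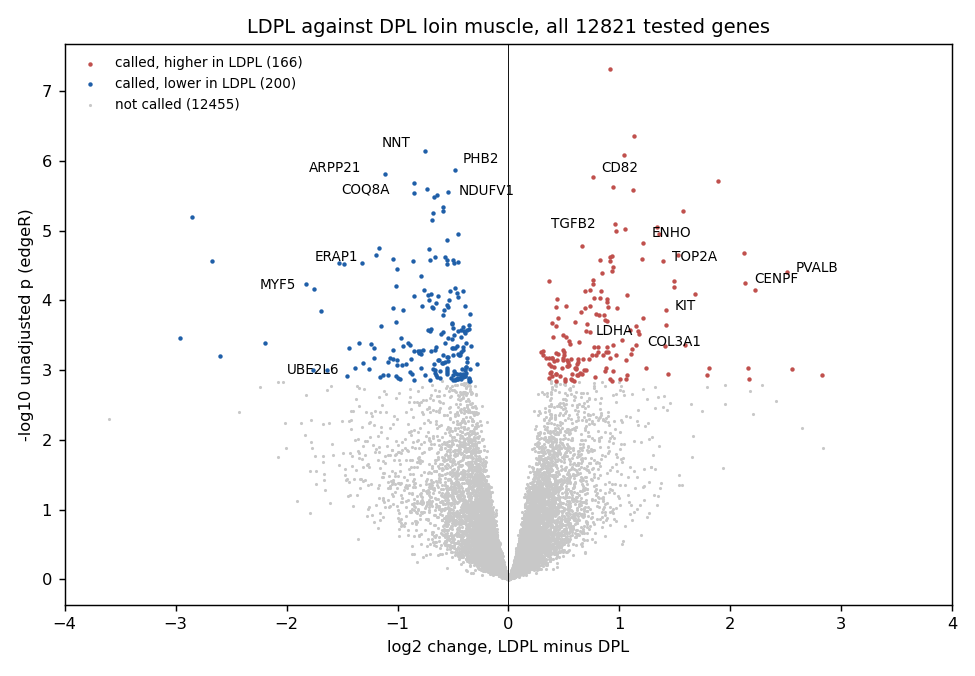
Log2 change between LDPL and DPL (x axis, positive where higher in LDPL) against -log10 of the unadjusted edgeR p (y axis) for each of 12821 tested genes. Red points are the 166 genes called higher in LDPL, blue points the 200 called lower, and grey points were not called. The called genes lie mostly within 1 log2 unit of 0, and PVALB reaches 2.51.

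In 25 genes (0.195% of those tested) the LDPL and DPL libraries did not overlap at all, 11 with every LDPL library above every DPL library (0.0858%) and 14 with every LDPL library below (0.109%). These were chosen after their values were seen, and 21 of the 25 were among the called genes. The ones with a symbol include several mitochondrial enzymes on the low side. NNT (ENSSSCG00000016877), the mitochondrial transhydrogenase that makes NADPH from NADH, was at 90.9 to 144 CPM, median 112, in the LDPL libraries and 147 to 235 CPM, median 192, in the DPL libraries. It was lower in LDPL (log2 change -0.76 ± 0.12, adjusted p = 0.0026), and the lowest DPL library stood just above the highest LDPL library. COQ8A (ENSSSCG00000010861), an atypical kinase needed to make coenzyme Q, was at 229.8 to 362 CPM, median 271, in the LDPL libraries and 364 to 735 CPM, median 513, in the DPL libraries. PHB2 (ENSSSCG00000024655), a prohibitin of the inner mitochondrial membrane, was at 50.8 to 72.2 CPM, median 58.8, in the LDPL libraries and 72.6 to 92.1 CPM, median 82.7, in the DPL libraries. Both were lower in LDPL, with a log2 change of -0.85 ± 0.15 for COQ8A and -0.48 ± 0.082 for PHB2 (SE, adjusted p = 0.0026 for each). PDK2 (ENSSSCG00000027198), a kinase that switches off pyruvate dehydrogenase, had medians of 94.01 CPM in LDPL and 159 CPM in DPL (log2 change -0.67 ± 0.12, adjusted p = 0.00267). ACOT8, a peroxisomal thioesterase that splits acyl-CoA, had medians of 5.98 CPM in LDPL and 8.85 CPM in DPL (log2 change -0.59 ± 0.11, adjusted p = 0.00345). NR1H3, the oxysterol receptor LXR alpha, was at 13.6 to 21.8 CPM, median 18.2, in the LDPL libraries and 23.1 to 36.01 CPM, median 25.3, in the DPL libraries (log2 change -0.57 ± 0.12, adjusted p = 0.00695). The other genes with a symbol below in every LDPL library were UQCRC1, MDH2 and ANKH, described further on, SH3BP5L (adjusted p = 0.00605), EXD2 (adjusted p = 0.0495) and NMNAT1, a nuclear enzyme of NAD synthesis, which was not called (adjusted p = 0.0511). Above in every LDPL library were GPI, a glycolytic enzyme, SLC16A12 (ENSSSCG00000010455), a creatine transporter, COL21A1, a collagen, PAPLN, a matrix protein, SMIM8 and MXD3. SLC16A12 was at 1.34 to 2.504 CPM, median 2.19, in the LDPL libraries and 0.136 to 1.21 CPM, median 0.761, in the DPL libraries (log2 change 1.58 ± 0.29, adjusted p = 0.00355). COL21A1 had medians of 2.597 CPM in LDPL and 1.35 CPM in DPL (log2 change 0.94 ± 0.17, adjusted p = 0.0026), and MXD3 was not called (adjusted p = 0.177).

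Respiratory chain genes were lower in LDPL wherever they were called. Of 43 tested nuclear genes for subunits of the 5 complexes, 10 were called lower in LDPL and 0 higher, where 1.56% of all tested genes were called lower. Their median log2 change was -0.34, beside -0.0016 over all genes, 37 of the 43 were below 0, and 27 were lower at an unadjusted p under 0.05, where 9.53% of all genes were. In complex I, the entry point of electrons from NADH, 5 of 20 tested genes were called lower (NDUFV1, NDUFA9, NDUFA10, NDUFA8 and NDUFB8). NDUFV1 (ENSSSCG00000012896), the subunit that binds NADH and a flavin, was at 63.4 to 93.5 CPM, median 77.3, in the LDPL libraries and 92.2 to 159 CPM, median 108, in the DPL libraries (log2 change -0.55 ± 0.097, adjusted p = 0.0026). A single LDPL library exceeded the lowest DPL library, and DPL 23 was far above the other DPL libraries. NDUFA9, a subunit of the matrix arm, was at 86.8 to 131 CPM, median 119.9, in the LDPL libraries and 129.9 to 203 CPM, median 162, in the DPL libraries (log2 change -0.46 ± 0.10, adjusted p = 0.0127). NDUFA10 had medians of 81.3 CPM in LDPL and 103 CPM in DPL (log2 change -0.40 ± 0.098, adjusted p = 0.0243). The call of NDUFA10 was lost without LDPL 5 (adjusted p = 0.0546) or without LDPL 10 (adjusted p = 0.0573).

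Further along the chain, 2 of 10 tested genes of complexes II and III, 2 of 7 of complex IV and 1 of 6 of complex V were called lower in LDPL, and none was called higher. UQCRC1 (ENSSSCG00000011356), a core subunit of complex III, was at 160.0 to 267 CPM, median 239, in the LDPL libraries and 299 to 449 CPM, median 309, in the DPL libraries (log2 change -0.55 ± 0.11, adjusted p = 0.00695). Its groups did not overlap. SDHA, the flavoprotein of complex II that also works in the TCA cycle, had medians of 133 CPM in LDPL and 176 CPM in DPL (log2 change -0.43 ± 0.11, adjusted p = 0.0243). Its call was lost without LDPL 10 (adjusted p = 0.0616). COX5B and COX4I1, nuclear subunits of cytochrome c oxidase, changed by -0.50 ± 0.13 (adjusted p = 0.0357) and -0.55 ± 0.15 (adjusted p = 0.0433), and ATP5F1A, the alpha subunit of ATP synthase, by -0.51 ± 0.13 (adjusted p = 0.0333). These 3 calls were lost in 7, 11 and 6 of the 16 fits that each left out 1 library, with adjusted p of up to 0.0865, 0.101 and 0.0768. Each of the 13 mitochondrially encoded genes also had a log2 change below 0, with a median of -0.53 and a range of -0.74 to -0.17. None of them was called by edgeR over all 32 libraries, though 11 had an unadjusted p under 0.05 and DESeq2 called 4. The edgeR fits that left out 1 library called at most 1 of them. CYTB (ENSSSCG00000018094), the mitochondrially encoded subunit of complex III, was at 11756 to 22768 CPM, median 18054, in the LDPL libraries and 16901 to 41905 CPM, median 30674, in the DPL libraries, with log2 change -0.71 ± 0.22, adjusted p = 0.0652.

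The share of mitochondrially encoded reads, which enters the scaling of all other genes, was lower in LDPL too. With the mitochondrially encoded genes left out of the table, 10 nuclear subunits were called lower and 0 higher. With the 4 libraries of lowest coverage left out, an alternative chosen after the values were seen, 4 were called lower, 0 were called higher and the median was -0.35. With limma on RPKM values 2 were called with a pseudocount of 1, and 3 with a pseudocount of 0.1. The 16 LDPL and DPL libraries fitted alone gave 4. Leaving out 1 library at a time gave 3 without LDPL 10, 4 without LDPL 5, 6 without LDPL 9 or DPL 7, and 7 to 10 without any other. In muscle as a whole, fewer cells of a type and less RNA per cell cannot be told apart.

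**Figure D3:**
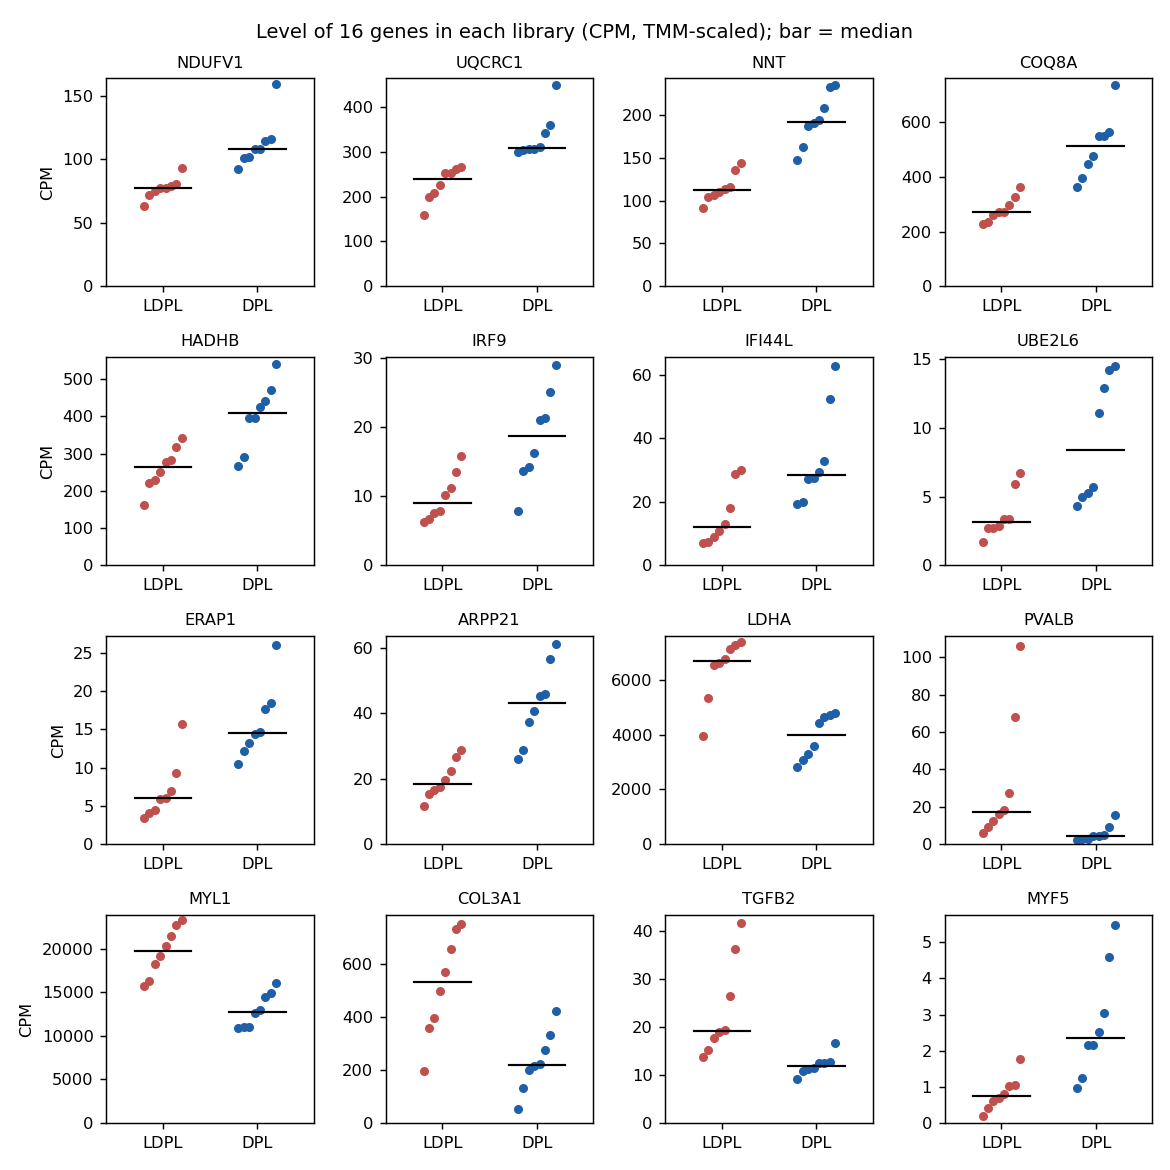
Level of 16 genes in each library, in CPM scaled by TMM, with LDPL left (red) and DPL right (blue) in each panel and the median as a bar. NNT, COQ8A and UQCRC1 have no overlap between the groups, whereas IRF9, COL3A1 and PVALB overlap, and PVALB spreads from 5.93 to 106 CPM within LDPL.

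The TCA cycle takes in the acetyl-CoA made from pyruvate and fatty acids and hands electrons to the chain. Of its 18 tested genes 3 were called lower in LDPL, where 1.56% of all tested genes were, and 0 were called higher. In this list 17 were below 0, and the median log2 change was -0.31. None was called without LDPL 10 and 2 without LDPL 5, whereas 3 to 6 were without any other single library, the 6 without DPL 16. Limma on RPKM values called 1 at either pseudocount, and edgeR without the 4 libraries of lowest coverage called 1. PDHA1, a subunit of the complex that turns pyruvate into acetyl-CoA, was at 267 to 447 CPM, median 376, in the LDPL libraries and 390.3 to 695 CPM, median 580.2, in the DPL libraries (log2 change -0.59 ± 0.15, adjusted p = 0.0243). MDH2, the mitochondrial malate dehydrogenase, was at 341 to 515 CPM, median 464, in the LDPL libraries and 520.0 to 769 CPM, median 588, in the DPL libraries (log2 change -0.41 ± 0.11, adjusted p = 0.033). In PDHA1 and MDH2 the lowest value among the 16 libraries was in LDPL, and MDH2 showed no overlap between the groups. Without LDPL 10 the adjusted p was 0.0616 for PDHA1 and 0.0773 for MDH2, and the call of MDH2 was also lost without LDPL 5 (0.0597) or DPL 23 (0.0616). FLAD1 (ENSSSCG00000006538), which stands outside these lists and makes the flavin cofactor FAD, was at 16.2 to 26.1 CPM, median 21.4, in the LDPL libraries and 24.9 to 40.7 CPM, median 33.7, in the DPL libraries (log2 change -0.64 ± 0.11, adjusted p = 0.0026). KYAT1, an aminotransferase of kynurenine, had medians of 11.8 CPM in LDPL and 21.3 CPM in DPL (log2 change -0.73 ± 0.13, adjusted p = 0.0026). DHRS4, a carbonyl and retinol reductase, had medians of 17.3 CPM in LDPL and 30.3 CPM in DPL (log2 change -0.85 ± 0.15, adjusted p = 0.0026). The calls of FLAD1, KYAT1 and DHRS4 were kept in all 16 fits that left out 1 library. GOT1, an enzyme of the malate-aspartate shuttle, changed by -0.88 ± 0.23 (adjusted p = 0.0373) and lost its call in 8 of these fits.

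Of 44 tested genes of the mitochondrial ribosome, which translates the mitochondrially encoded subunits, 5 were called lower and 0 higher in LDPL. Over all tested genes 1.56% were called lower. The median log2 change of the list was -0.19. MRPL4 was at 11.96 to 20.5 CPM, median 15.2, in the LDPL libraries and 19.2 to 25.9 CPM, median 21.6, in the DPL libraries (log2 change -0.45 ± 0.093, adjusted p = 0.00695). MRPL38 and MRPL11 changed by -0.45 ± 0.10 and -0.50 ± 0.12 (adjusted p = 0.0132 and 0.0239). MRPS10 and MRPS27 were the remaining called members, at log2 changes of -0.44 and -0.35. Limma on RPKM values called 0 members of this list at either pseudocount, and edgeR without the 4 libraries of lowest coverage called 5. Among 22 tested regulators of mitochondrial mass and dynamics, TOMM40, the pore through which proteins enter mitochondria, and PRKAG1, a subunit of the energy sensor AMPK, were called lower (-0.40 and -0.38, adjusted p = 0.0153 and 0.0316). PPARGC1A, the coactivator that drives mitochondrial biogenesis, was at 21.2 to 212 CPM, median 36.9, in the LDPL libraries and 11.04 to 179 CPM, median 35.3, in the DPL libraries. Its values spread widely in both groups, and it was not called (log2 change -0.02 ± 0.52, adjusted p = 0.993). Of 20 antioxidant genes, CAT, GPX4 and TXN2 were called lower, with log2 changes of -0.51, -0.45 and -0.35 (adjusted p = 0.0218, 0.0492 and 0.0499). Without LDPL 5 or LDPL 10 the adjusted p of CAT, which encodes catalase, was 0.056 or 0.0545, and GPX4 and TXN2 lost their calls in 11 and 12 of the 16 fits.

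Fatty acid oxidation had the largest share of called members among the 30 lists of genes by function. Of 23 tested genes 8 were called lower and 0 higher in LDPL, where 1.56% of all tested genes were called lower. At an unadjusted p under 0.05, 17 were lower, where 9.53% of all tested genes were, and the median log2 change was -0.41. ACSL1 (ENSSSCG00000015784), which activates long-chain fatty acids as acyl-CoA, was at 246 to 479.9 CPM, median 359, in the LDPL libraries and 404 to 809 CPM, median 623, in the DPL libraries (log2 change -0.70 ± 0.16, adjusted p = 0.0127). HADHA and HADHB encode the subunits of the trifunctional protein, which carries out the last steps of the oxidation of long chains. HADHB was at 163 to 343 CPM, median 264, in the LDPL libraries and 266 to 539.7 CPM, median 410.1, in the DPL libraries (log2 change -0.63 ± 0.14, adjusted p = 0.0131). HADHA was at 179 to 360.2 CPM, median 295, in the LDPL libraries and 343 to 587 CPM, median 391, in the DPL libraries (log2 change -0.54 ± 0.12, adjusted p = 0.0137). In these 3 genes the medians of the LDPL libraries lay below those of the DPL libraries while the ranges overlapped, and the lowest values were those of LDPL. The other called members were ECH1 (log2 change -0.79), an auxiliary isomerase, CPT2 (-0.54), which releases acyl-CoA inside mitochondria, HSD17B10 (-0.47), ACADS (-0.41), the short-chain dehydrogenase, and ETFDH (-0.39), which passes the electrons to coenzyme Q, with adjusted p from 0.0345 to 0.0492. CPT1B, the muscle enzyme that admits fatty acids to mitochondria, was at 32.7 to 57.5 CPM, median 44.5, in the LDPL libraries and 41.5 to 74.6 CPM, median 60.9, in the DPL libraries. It was not called (log2 change -0.37 ± 0.13, adjusted p = 0.121). PDK4, a kinase induced by fasting, was at 1023 to 4353 CPM, median 2385, in the LDPL libraries and 1745 to 6559 CPM, median 3532, in the DPL libraries (adjusted p = 0.414). UCP3, an uncoupling protein of muscle, had medians of 228 CPM in LDPL and 202 CPM in DPL (adjusted p = 0.903). Leaving out 1 library at a time gave 3 to 7 calls in this list, leaving out the 4 libraries of lowest coverage gave 2, and limma on RPKM values gave 2 and 3.

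Of 17 tested genes of fat cells and lipid storage, 3 were called lower and 0 higher in LDPL. Over all tested genes 1.56% were called lower. The median log2 change of the list was -0.40. PLIN5 (ENSSSCG00000013513), which coats lipid droplets and ties them to mitochondria, was at 0.867 to 7.24 CPM, median 3.85, in the LDPL libraries and 1.79 to 25.6 CPM, median 11.5, in the DPL libraries (log2 change -1.38 ± 0.38, adjusted p = 0.0433). LDPL 5 held the lowest value, and the call was lost in 11 of 16 fits (adjusted p up to 0.107). PNPLA2, the first lipase of triglyceride breakdown, was at 67.9 to 144 CPM, median 109.6, in the LDPL libraries and 109 to 244 CPM, median 169, in the DPL libraries (log2 change -0.70 ± 0.17, adjusted p = 0.0239). Its call was lost without LDPL 5 (adjusted p = 0.0584). ZNF423, a regulator of fat cell precursors in mice, changed by -0.66 ± 0.19 (adjusted p = 0.0462) and lost its call in 11 of 16 fits. PPARG, the master regulator of fat cells, had medians of 2.62 CPM in LDPL and 4.09 CPM in DPL and was not called (adjusted p = 0.392). Of 21 genes of fatty acid synthesis, ACSS2, which makes acetyl-CoA from acetate, was called lower (log2 change -0.55 ± 0.13, adjusted p = 0.0153), and none was called higher. FASN and SCD, the fatty acid synthase and the desaturase that makes oleate, had wide ranges in both groups and were not called (adjusted p = 0.967 and 0.606). Of 12 adipocyte markers 6 were tested and none was called, with sums of 533 to 831 CPM in LDPL and 503 to 719 CPM in DPL. PLIN1, the droplet coat of white fat cells, was at 0.433 to 9.69 CPM, median 3.33, in the LDPL libraries and 2.27 to 20.4 CPM, median 10.4, in the DPL libraries (adjusted p = 0.244). The 6 adipocyte markers had a median log2 change of -0.79, with 4 of them below 0. The sum is mostly GPD1, an enzyme that muscle also expresses, with medians of 444 CPM in LDPL and 350.3 CPM in DPL. LIPE, the hormone-sensitive lipase, had medians of 33.3 CPM in LDPL and 64.4 CPM in DPL, and CIDEC, a droplet protein, 2.05 CPM in LDPL and 3.63 CPM in DPL, and neither was called. Without LDPL 5 none of the lipid storage genes was called, and leaving out any other single library gave 1 to 3. The part of fat cells in the lipid results was not tested.

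Glycolytic and fast fibre genes were higher in LDPL wherever they were called. Of 21 tested glycolytic genes, 3 were called higher and 0 lower, where 1.29% of all tested genes were called higher, and the median log2 change was 0.15. LDHA (ENSSSCG00000013366), which turns pyruvate into lactate, was at 3954 to 7368 CPM, median 6685, in the LDPL libraries and 2803 to 4781 CPM, median 3989, in the DPL libraries (log2 change 0.71 ± 0.17, adjusted p = 0.022). GPI (ENSSSCG00000002873), the second enzyme of the pathway, was at 830.4 to 1072 CPM, median 938, in the LDPL libraries and 577 to 821 CPM, median 644, in the DPL libraries (log2 change 0.49 ± 0.12, adjusted p = 0.0264), without overlap. TPI1, triose phosphate isomerase, was at 1051 to 1706 CPM, median 1536, in the LDPL libraries and 782 to 1358 CPM, median 1028, in the DPL libraries (log2 change 0.53 ± 0.14, adjusted p = 0.0377). The call of GPI was lost without LDPL 5 (adjusted p = 0.0584) or LDPL 10 (0.0502), and that of TPI1 in 11 of 16 fits. LDHA and TPI1 have processed copies in mammalian genomes, so reads may be shared with them. With limma on RPKM values the list had 4 and 6 genes called higher and 0 lower, and with the 4 libraries of lowest coverage left out it had 1. None of 14 genes of glycogen metabolism was called. PRKAG3, the muscle AMPK subunit known for its effect on pork glycogen, was at 21.6 to 43.4 CPM, median 31.1, in the LDPL libraries and 14.6 to 32.1 CPM, median 22.3, in the DPL libraries (log2 change 0.53 ± 0.20, adjusted p = 0.143).

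Among 10 tested fast fibre genes 3 were called higher and 0 lower in LDPL, where 1.29% of all tested genes were called higher. The median log2 change of the list was 0.24. PVALB (ENSSSCG00000000138), parvalbumin, a calcium buffer of fast fibres, was at 5.93 to 106 CPM, median 16.96, in the LDPL libraries and 2.04 to 15.5 CPM, median 4.37, in the DPL libraries (log2 change 2.51 ± 0.53, adjusted p = 0.00849). This was the largest rise among the named genes, and it held in every fit that left out 1 library although the LDPL values were widely spread. MYL1, a myosin light chain of fast fibres, was at 15738 to 23291 CPM, median 19759, in the LDPL libraries and 10949 to 16117 CPM, median 12795, in the DPL libraries (log2 change 0.60 ± 0.14, adjusted p = 0.0211). TPM1, a tropomyosin, changed by 0.58 ± 0.16 (adjusted p = 0.0467), a call lost in 13 of 16 fits. Tropomyosin genes resemble each other closely, so the assignment of reads to TPM1 is uncertain. None of 9 tested slow fibre genes was called, although 8 were below 0, with a median log2 change of -0.34. MYL3 and TNNI1, slow forms of a myosin light chain and of troponin I, had log2 changes of -0.70 and -0.52 (adjusted p = 0.249 and 0.357). CA3 (ENSSSCG00000006141), a carbonic anhydrase abundant in muscle, is in neither the fast nor the slow fibre list and was higher in LDPL. Its level was 2922 to 7525 CPM, median 5382, in the LDPL libraries and 2239 to 4205 CPM, median 2789.5, in the DPL libraries (log2 change 0.86 ± 0.20, adjusted p = 0.0177). CARNS1, which makes carnosine, a buffer of fast fibres, was at 139 to 284 CPM, median 154, in the LDPL libraries and 78.8 to 149.7 CPM, median 103, in the DPL libraries (log2 change 0.74 ± 0.17, adjusted p = 0.0153). CA3 and CARNS1 kept their calls in all 16 fits.

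**Figure D4:**
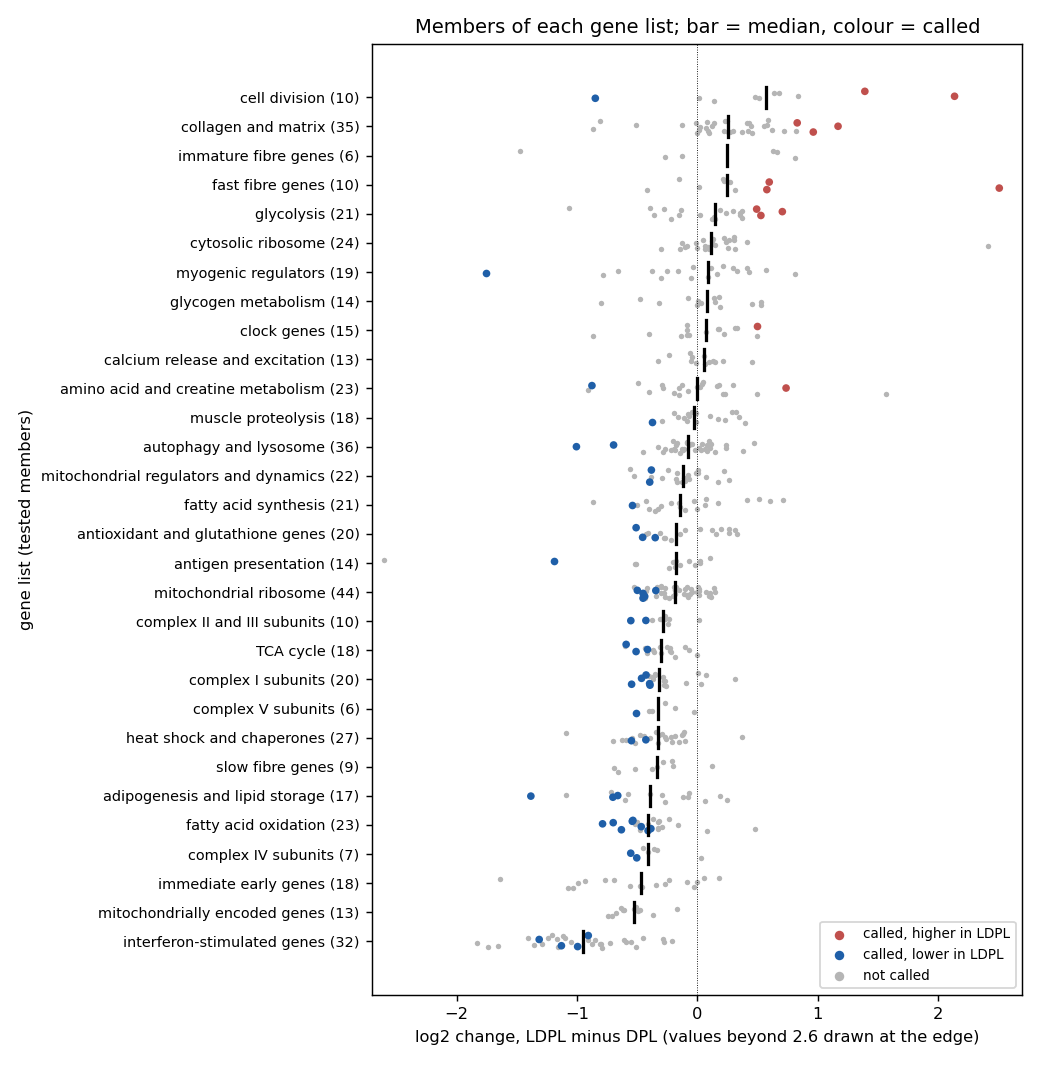
Log2 change between LDPL and DPL (x axis) of every tested member of 30 gene lists (y axis, number tested in brackets), with the median of each list as a black bar. Red and blue points are members called higher and lower in LDPL, and grey points were not called. The interferon-stimulated genes, with a median of -0.95, and the mitochondrially encoded genes, at -0.53, lie furthest to the left, and cell division, at 0.57, furthest to the right.

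Interferon-stimulated genes had the lowest median of the pathway lists. All 32 tested members had a log2 change below 0, and the median was -0.95. In 25 the unadjusted p was under 0.05, where 9.53% of all tested genes were lower at that level. Only 4 were called lower, where 1.56% of all tested genes were, and 0 were called higher. Single genes spread widely among the libraries of each group. IRF9 (ENSSSCG00000002002), the DNA-binding subunit of the complex that carries the interferon signal, was at 6.196 to 15.8 CPM, median 8.997, in the LDPL libraries and 7.76 to 28.9 CPM, median 18.6, in the DPL libraries (log2 change -0.91 ± 0.23, adjusted p = 0.0314). UBE2L6, the enzyme that attaches the ubiquitin-like protein ISG15, was at 1.66 to 6.73 CPM, median 3.13, in the LDPL libraries and 4.35 to 14.5 CPM, median 8.43, in the DPL libraries (log2 change -1.31 ± 0.36, adjusted p = 0.0394). IFI44L was at 7.01 to 29.9 CPM, median 11.98, in the LDPL libraries and 19.3 to 62.8 CPM, median 28.3, in the DPL libraries (log2 change -1.13 ± 0.32, adjusted p = 0.047). IFIT5, which binds viral RNA, was at 2.9999 to 8.53 CPM, median 5.16, in the LDPL libraries and 5.44 to 19.9 CPM, median 10.1, in the DPL libraries (log2 change -0.99 ± 0.28, adjusted p = 0.0492). These 4 genes overlapped between the groups, and they lost their calls in 6, 9, 12 and 11 of 16 fits. Classic members of the module had larger changes with larger errors and were not called, such as MX1 (-1.74 ± 0.69, adjusted p = 0.168), DHX58 (-1.83 ± 0.66, adjusted p = 0.126) and IFIT1 (-1.41 ± 0.56, adjusted p = 0.169).

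The interferon module as a whole ranged widely within both groups. The median over the list of each gene's log2 CPM, centred over the 16 libraries, ranged from -1.16 in LDPL 10 to 0.62 in LDPL 9, and from -0.72 in DPL 19 to 1.39 in DPL 11. DPL 11, 16, 21 and 30 stood above every LDPL library, at 0.88 or more, whereas DPL 7, 23 and 26 lay between -0.07 and 0.17, within the LDPL range. Leaving out 1 library at a time gave 0 to 6 calls in the list, and leaving out the 4 libraries of lowest coverage, which include DPL 16 and 21, gave 0 calls with a median of -0.76. Limma on RPKM values also gave 0 calls. Of 12 macrophage markers 7 were tested and none was called, with sums of 30.04 to 102 CPM in LDPL and 34.96 to 93.7 CPM in DPL. Of 12 T and B lymphocyte markers 6 were tested and none was called, with sums of 7.74 to 22.3 CPM in LDPL and 5.205 to 19.7 CPM in DPL.

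Of 14 tested genes of antigen presentation 1 was called lower in LDPL, where 1.56% of all tested genes were, and 0 were called higher. The called gene was ERAP1 (ENSSSCG00000014171), which trims peptides for presentation by MHC class I. It was at 3.41 to 15.7 CPM, median 5.97, in the LDPL libraries and 10.45 to 26.1 CPM, median 14.5, in the DPL libraries (log2 change -1.19 ± 0.24, adjusted p = 0.00695). It was called in all 16 fits that left out 1 library and in all 9 other alternatives. TAP2, a subunit of the peptide pump, had the lowest log2 change in the list, -3.60, and was not called (adjusted p = 0.0945).

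**Figure D5:**
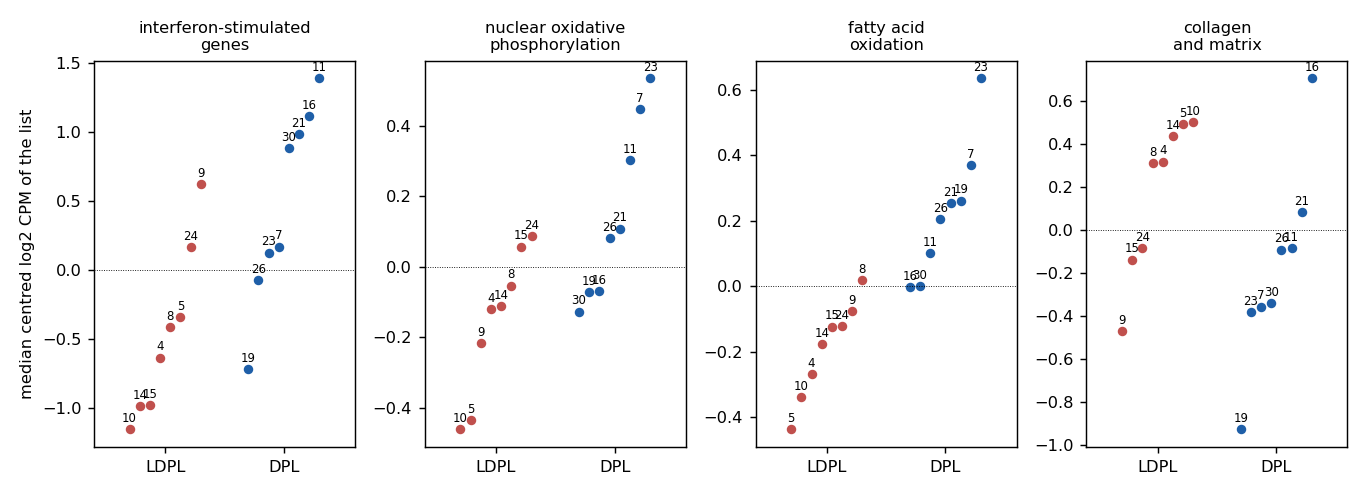
Median over the members of 4 gene lists of each gene's log2 CPM, centred over the 16 libraries (y axis), for each LDPL library (red, left) and DPL library (blue, right), with replicate numbers. Interferon-stimulated genes range from -1.16 to 0.62 in LDPL and from -0.72 to 1.39 in DPL, and in all 4 lists the groups overlap.

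Of 27 tested heat shock and chaperone genes 2 were called lower and 0 higher in LDPL, where 1.56% of all tested genes were called lower. Of the 27, 26 were below 0, and the median log2 change was -0.32. In the list's median centred log2 CPM the groups overlapped, from -0.36 to 0.20 in LDPL and from -0.28 to 0.81 in DPL. The highest value was that of DPL 11, and the next DPL library was DPL 7 at 0.23. HSP90AB1, a constitutive chaperone, was at 670.4 to 1048 CPM, median 834, in the LDPL libraries and 941 to 1816 CPM, median 1221, in the DPL libraries (log2 change -0.55 ± 0.15, adjusted p = 0.0368). FKBP4, its co-chaperone, was at 177 to 326 CPM, median 234, in the LDPL libraries and 226 to 374 CPM, median 346, in the DPL libraries (log2 change -0.43 ± 0.12, adjusted p = 0.0473). Their ranges overlapped, and the calls were lost in 7 and 12 of 16 fits. None of 18 immediate early genes was called by edgeR over all 32 libraries, although 16 were below 0 with a median of -0.47. At an unadjusted p under 0.05, 5 of them were lower, where 9.53% of all tested genes were. DESeq2 called 1 of them lower, as did edgeR on the 16 LDPL and DPL libraries alone. EGR1, a transcription factor induced within minutes of a stimulus, changed by -1.64 ± 0.49 (adjusted p = 0.0585). Of 18 genes of muscle proteolysis, CAPNS1, the small calpain subunit, was called lower (log2 change -0.37 ± 0.10, adjusted p = 0.0394) and lost its call in 11 of 16 fits. Of 36 genes of autophagy, GABARAPL1, a coat protein of autophagosomes, and DEPP1, a target of FOXO factors, were called lower (-0.70 and -1.005, adjusted p = 0.0346 and 0.038), and they lost their calls in 6 and 10 of 16 fits.

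Connective tissue genes were higher in LDPL wherever they were called. Of 35 tested genes of collagens and matrix, 3 were called higher, where 1.29% of all tested genes were, and 0 were called lower. In this list 29 were above 0, and the median log2 change was 0.26. At an unadjusted p under 0.05, 13 were higher, where 8.07% of all genes were. COL3A1 (ENSSSCG00000016034), a fibrillar collagen of muscle connective tissue, was at 195 to 749 CPM, median 531, in the LDPL libraries and 52.7 to 419.7 CPM, median 218, in the DPL libraries (log2 change 1.17 ± 0.29, adjusted p = 0.0243). COL15A1 (ENSSSCG00000005380), a collagen of basement membranes, was at 6.52 to 17.5 CPM, median 10.1, in the LDPL libraries and 3.601 to 7.795 CPM, median 5.35, in the DPL libraries (log2 change 0.96 ± 0.18, adjusted p = 0.00452). NID2, which links laminin to collagen IV, was at 10.6 to 23.01 CPM, median 15.4, in the LDPL libraries and 6.79 to 14.1 CPM, median 9.23, in the DPL libraries (log2 change 0.83 ± 0.17, adjusted p = 0.00695). The ranges of all 3 overlapped. The call of COL3A1 was lost without LDPL 5 (adjusted p = 0.0556) or LDPL 10 (0.058), whereas COL15A1 and NID2 kept theirs in all 16 fits. With the 4 libraries of lowest coverage left out, 6 genes of this list were called higher and the median was 0.43. In the list's median centred log2 CPM these 4 were DPL 16 at 0.71, LDPL 4 at 0.32, DPL 21 at 0.087 and DPL 23 at -0.38. DPL 16 stood above every LDPL library. The LDPL libraries ranged from -0.47 in LDPL 9 to 0.50 in LDPL 10, and the lowest DPL library was DPL 19 at -0.93. COL1A2, a chain of type I collagen, changed by 0.82 ± 0.26 (adjusted p = 0.0716). Of 12 fibroblast markers 7 were tested, of which COL3A1 was called, with sums of 561 to 1656 CPM in LDPL and 359 to 1427 CPM in DPL. DCN, decorin, another marker of fibroblasts, was at 225 to 537 CPM, median 364, in the LDPL libraries and 222 to 609 CPM, median 314, in the DPL libraries (adjusted p = 0.822). Of the 7 fibroblast markers 6 had a log2 change above 0, and their median was 0.41. LUM, lumican, had medians of 75.5 CPM in LDPL and 49.6 CPM in DPL, and FAP, a surface protease, 11.5 CPM in LDPL and 8.78 CPM in DPL, and neither was called. The part of fibroblasts in the collagen results was not tested.

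The largest rises took in signalling and structural genes outside these lists. TGFB2 (ENSSSCG00000010816), a ligand of the TGF-beta family, was at 13.8 to 41.8 CPM, median 19.2, in the LDPL libraries and 9.11 to 16.8 CPM, median 11.9, in the DPL libraries (log2 change 0.97 ± 0.19, adjusted p = 0.00506). ENHO (ENSSSCG00000027428), which encodes the secreted peptide adropin, was at 14.5 to 45.9 CPM, median 30.4, in the LDPL libraries and 6.903 to 23.95 CPM, median 10.3, in the DPL libraries (log2 change 1.21 ± 0.24, adjusted p = 0.00637). ITGB1BP2 (ENSSSCG00000022209), melusin, an integrin-binding protein of striated muscle, was at 9.75 to 24.7 CPM, median 15.3, in the LDPL libraries and 4.88 to 11.1 CPM, median 7.05, in the DPL libraries (log2 change 1.05 ± 0.20, adjusted p = 0.00481). TGFB2, ENHO and ITGB1BP2 kept their calls in all 16 fits that left out 1 library and in all 9 other alternatives. DDIT4L (ENSSSCG00000025240), an inhibitor of mTOR signalling, was at 416 to 718 CPM, median 557, in the LDPL libraries and 139 to 511 CPM, median 298, in the DPL libraries (log2 change 0.90 ± 0.21, adjusted p = 0.0153). This call too held in all of these fits. CAPN6, a calpain without protease activity, was at 15.5 to 51.1 CPM, median 24.7, in the LDPL libraries and 4.69 to 16.4 CPM, median 13.97, in the DPL libraries (log2 change 1.18 ± 0.29, adjusted p = 0.0257). Its call was lost without LDPL 5 (adjusted p = 0.0602) or LDPL 10 (0.0713). CNN1, a calponin of smooth muscle, was at 24.02 to 44.4 CPM, median 36.8, in the LDPL libraries and 9.11 to 26.99 CPM, median 19.9, in the DPL libraries (log2 change 0.88 ± 0.20, adjusted p = 0.0136). It was the 1 called gene of 9 tested smooth muscle and pericyte markers, where 1.29% of all tested genes were called higher. These markers summed to 117 to 274 CPM in LDPL and 122 to 232 CPM in DPL, and the part of these cells was not tested. KIT, a receptor best known from pigment and mast cells, had low levels of 0.867 to 4.18 CPM, median 1.57, in the LDPL libraries and 0.251 to 1.35 CPM, median 0.533, in the DPL libraries (log2 change 1.42 ± 0.33, adjusted p = 0.016). Without LDPL 10 its adjusted p was 0.0615. H1-3 and CDC14A, a linker histone and a phosphatase, completed the largest rises so ranked at 0.91 ± 0.26 and 0.90 ± 0.23 (adjusted p = 0.0493 and 0.0349). They lost their calls in 11 and 6 of 16 fits, and reads of linker histone genes may be shared between near-identical copies.

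Of 19 tested myogenic regulators 1 was called lower in LDPL, where 1.56% of all tested genes were, and none was called higher. The called gene was MYF5 (ENSSSCG00000000937), a transcription factor of muscle precursor cells. It was at 0.197 to 1.78 CPM, median 0.743, in the LDPL libraries and 0.975 to 5.49 CPM, median 2.34, in the DPL libraries (log2 change -1.75 ± 0.39, adjusted p = 0.0121). In 5 of the 8 LDPL libraries it lay below every DPL library, all at a level of a few CPM or less. Of the 4 tested satellite cell markers MYF5 was the 1 called, and the sum of the list was 27.5 to 60.3 CPM in LDPL and 27.8 to 44.2 CPM in DPL. MYOD1, MYF6 and MEF2C, further factors of muscle differentiation, were not called (adjusted p = 0.446, 0.378 and 0.48). MSTN (ENSSSCG00000016047), myostatin, the inhibitor of muscle growth, was at 5.08 to 30.6 CPM, median 15.5, in the LDPL libraries and 3.49 to 13.6 CPM, median 10.1, in the DPL libraries. Its log2 change of 0.81 ± 0.30 was not called (adjusted p = 0.134). Among genes of immature fibres none of 6 was called, and MYH3, the embryonic myosin heavy chain, had medians of 4.396 CPM in LDPL and 5.93 CPM in DPL (adjusted p = 0.882).

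Of 10 tested genes of cell division, 2 were called higher and 1 lower in LDPL, where 1.29% and 1.56% of all tested genes were. TOP2A, the topoisomerase of dividing cells, was at 1.38 to 3.904 CPM, median 3.04, in the LDPL libraries and 0.454 to 2.48 CPM, median 0.9998, in the DPL libraries (log2 change 1.39 ± 0.29, adjusted p = 0.00695). CENPF, a centromere protein, was at 0.339 to 1.45 CPM, median 1.01, in the LDPL libraries and 0 to 0.617 CPM, median 0.219, in the DPL libraries (log2 change 2.14 ± 0.46, adjusted p = 0.0109). TPX2, a spindle protein, was at 3.35 to 7.93 CPM, median 3.94, in the LDPL libraries and 5.27 to 14.1 CPM, median 9.25, in the DPL libraries (log2 change -0.85 ± 0.22, adjusted p = 0.0348), a call lost in 6 of 16 fits. TOP2A and CENPF are near the level of 1 CPM, so their values rest on few reads, and the 3 called members did not move the same way.

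The largest falls and the smallest p-values, ranked over called genes with a symbol and 5 RPKM or more, took in further genes outside these groups. ARPP21 (ENSSSCG00000011238), a phosphoprotein regulated by cyclic AMP, was at 11.8 to 28.9 CPM, median 18.5, in the LDPL libraries and 26.2 to 61.2 CPM, median 43.1, in the DPL libraries (log2 change -1.11 ± 0.19, adjusted p = 0.0026). AP5B1 (ENSSSCG00000012978), an adaptor protein of endosomes, was at 5.55 to 20.2 CPM, median 7.58, in the LDPL libraries and 14.8 to 29.3 CPM, median 22.2, in the DPL libraries (log2 change -1.16 ± 0.23, adjusted p = 0.00695). ANKH (ENSSSCG00000016784), which exports pyrophosphate and ATP from cells, was at 3.303 to 7.06 CPM, median 5.26, in the LDPL libraries and 7.89 to 18.3 CPM, median 9.45, in the DPL libraries (log2 change -1.01 ± 0.24, adjusted p = 0.0213). FAM13C and DEDD2, a protein with a death effector domain, changed by -1.04 ± 0.24 and -1.01 ± 0.21 (adjusted p = 0.0153 and 0.00774). All 5 kept their calls in all 16 fits. UCHL1, a ubiquitin hydrolase known from neurons, was at 2.33 to 5.87 CPM, median 3.66, in the LDPL libraries and 2.01 to 27.2 CPM, median 7.92, in the DPL libraries (log2 change -1.26 ± 0.35, adjusted p = 0.0433) and lost its call in 11 of them. Among the rises with the smallest p, CD82 (ENSSSCG00000029521), a tetraspanin of the cell surface, was at 16.6 to 27.6 CPM, median 19.8, in the LDPL libraries and 9.75 to 18.1 CPM, median 10.6, in the DPL libraries (log2 change 0.76 ± 0.13, adjusted p = 0.0026). ALDH2 (ENSSSCG00000009889), the mitochondrial aldehyde dehydrogenase, was at 219 to 399 CPM, median 297, in the LDPL libraries and 162 to 264 CPM, median 173, in the DPL libraries (log2 change 0.67 ± 0.13, adjusted p = 0.00695). ERLEC1, a lectin of the endoplasmic reticulum, had medians of 47.4 CPM in LDPL and 36.8 CPM in DPL (log2 change 0.37 ± 0.079, adjusted p = 0.0104). Of 15 clock genes RORA, a nuclear receptor, was called higher (log2 change 0.49 ± 0.13, adjusted p = 0.0373), a call lost in 7 of 16 fits. Over all tested genes 1.29% were called higher. Lists with 0 called members were, besides those given above, calcium release with 13 tested genes and the cytosolic ribosome with 24.

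Of the 366 called genes 100 have no symbol in the tables used. The smallest adjusted p of the comparison was that of ENSSSCG00000020732, at 5.19 to 6.46 CPM, median 5.48, in the LDPL libraries and 2.16 to 3.66 CPM, median 2.97, in the DPL libraries (log2 change 0.92 ± 0.13, adjusted p = 0.000628), without overlap between the groups. ENSSSCG00000022908 was also higher in LDPL (log2 change 1.13 ± 0.18, adjusted p = 0.0026). The lower genes without a symbol of smallest p were ENSSSCG00000020972 (log2 change -0.68 ± 0.13, adjusted p = 0.0036) and ENSSSCG00000024342. The second of these was at 0.243 to 7.51 CPM, median 2.29, in the LDPL libraries and 6.62 to 59.5 CPM, median 16.7, in the DPL libraries (log2 change -2.85 ± 0.53, adjusted p = 0.0039).

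The same model gave the levels of these genes in the other breed groups, with the LDPL libraries shared between comparisons. LDPL minus L had 3793 called genes (29.6% of those tested), and LDPL minus DLDPL had 0 by edgeR, where 969 genes (7.56%) had an unadjusted p under 0.05. The L libraries are numbered in a series of their own, so breed and separate handling cannot be told apart in values set against L. NNT averaged 115 ± 17.3 CPM in LDPL, 195 ± 30.7 CPM in DPL, 99.5 ± 18.1 CPM in L and 129.6 ± 24.3 CPM in DLDPL (SD, n = 8 each). LDPL was not called different from L (log2 change 0.21 ± 0.12, adjusted p = 0.198). COQ8A averaged 282 ± 45.1 CPM in LDPL, 510.4 ± 118 CPM in DPL, 228 ± 57.5 CPM in L and 314 ± 61.03 CPM in DLDPL, again without a call against L (log2 change 0.31 ± 0.15, adjusted p = 0.114). LDHA averaged 6373 ± 1170.1 CPM in LDPL, 3908 ± 808 CPM in DPL, 7453 ± 1944 CPM in L and 6686 ± 1391 CPM in DLDPL. PVALB averaged 32.8 ± 35.5 CPM in LDPL, 5.74 ± 4.56 CPM in DPL, 37.95 ± 27.9 CPM in L and 24.7 ± 7.12 CPM in DLDPL, and neither gene was called against L (adjusted p = 0.331 and 0.786). In these 4 genes the mean of LDPL lay nearer to that of L than to that of DPL. All 4 had been called against DPL, a choice that favours such a placing. The placing was not counted over all genes.

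Some of the named genes, all called against DPL first, were lower or higher in LDPL than in both Dapulian and Landrace. Such genes were not counted over all tested genes, of which 29.6% were called in LDPL minus L in either direction. The same LDPL libraries enter both comparisons, so the second is not independent of the first. Breed and separate handling of L cannot be told apart here either. The calls against DPL of IRF9, CAT, CDC14A and RORA were each lost in some fits that left out 1 library. ERAP1 averaged 6.97 ± 3.98 CPM in LDPL, 15.9 ± 4.901 CPM in DPL, 16.3 ± 4.51 CPM in L and 10.2 ± 2.41 CPM in DLDPL. LDPL was lower than L as well (log2 change -1.23 ± 0.24, adjusted p = 0.000257). ARPP21 averaged 19.8 ± 5.83 CPM in LDPL, 42.8 ± 12.2 CPM in DPL, 35.9 ± 8.49 CPM in L and 30.3 ± 8.16 CPM in DLDPL, again lower in LDPL than in L (log2 change -0.86 ± 0.19, adjusted p = 0.000876). ANKH, IRF9 and CAT were likewise lower than in L, with log2 changes of -0.88, -0.61 and -0.91 (adjusted p = 0.00606, 0.0419 and 1.53e-06). CDC14A and RORA were higher in LDPL than in L, with log2 changes of 0.79 and 1.27 (adjusted p = 0.0104 and 1.86e-08), as they were against DPL. In contrast COL3A1, higher in LDPL than in DPL, averaged 518 ± 195 CPM in LDPL, 231 ± 114 CPM in DPL, 1034 ± 225 CPM in L and 709.5 ± 282 CPM in DLDPL and was lower in LDPL than in L (log2 change -0.996 ± 0.29, adjusted p = 0.00843). ENHO averaged 30.04 ± 10.6 CPM in LDPL, 13.01 ± 6.02 CPM in DPL, 55.3 ± 13.7 CPM in L and 21.98 ± 5.84 CPM in DLDPL. It was also lower in LDPL than in L (log2 change -0.88 ± 0.24, adjusted p = 0.00485). KIT also lay between DPL and L, with 1.77 ± 1.02 CPM in LDPL, 0.647 ± 0.364 CPM in DPL, 7.47 ± 2.44 CPM in L and 2.15 ± 0.881 CPM in DLDPL. LDPL was lower than L (log2 change -2.07 ± 0.30, adjusted p = 4.79e-06). MSTN, not called against DPL, averaged 16.96 ± 9.25 CPM in LDPL, 9.66 ± 3.41 CPM in DPL, 38.7 ± 7.15 CPM in L and 16.5 ± 9.71 CPM in DLDPL. LDPL was lower than L (log2 change -1.19 ± 0.30, adjusted p = 0.00259).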

How the data were processed

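RNA of the longissimus dorsi of 32 pigs was sequenced, with 1 library per pig and 8 per breed group, from frozen tissue and with a library kit that keeps no strand information, per the labels' protocols. Overlapping genes of opposite strands may therefore share reads. Bowtie 0.12.2, Cufflinks and mm8, a build of the mouse genome, are named in the submitters' processing notes. The gene identifiers are of pig, the pig build is not given in the sources used here, and no positions are printed. The authors deposited for each library raw counts of uniquely mapped reads, gene length in bases, a coverage value in percent (taken as the covered part of that length, although 12 values exceed 100) and RPKM. The deposited RPKM values follow from the counts, lengths and totals to a relative deviation of 2.2e-14. A gene absent from a file was given a count of 0. A table of names held a symbol for 10836 of 17930 identifiers (60.4%), and 14.5% of the reads fell on identifiers without one.

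Low genes were removed by edgeR's filterByExpr (version 4.0.16, at least 10 counts and 15 in total), leaving 12821 genes with 99.97% of the reads. After TMM scaling, counts were fitted over all 32 libraries with group as the factor (R 4.3.3, common biological coefficient of variation 0.285). LDPL minus DPL was tested by the quasi-likelihood F test, adjusted over all genes by the Benjamini-Hochberg method and called at an adjusted p under 0.05. Adjusted p-values of genes come from this edgeR test wherever no other tool is named. Standard errors are the log2 change divided by the square root of F. CPM are counts per TMM-scaled library size. Library measures (the mitochondrial share, and coverage over 1360 genes of at least 3000 bases and a mean RPKM of 5) were compared by two-sided exact permutation tests. Alternatives were DESeq2 1.42.0, its size factors in edgeR, no filter, the 16 libraries alone, no mitochondrially encoded genes, limma 3.58.1 on log2(RPKM + 1) and log2(RPKM + 0.1), and each library left out. A further 2 were chosen after the data were seen: limma voom with library weights, and leaving out the 4 libraries of lowest coverage. On simulated counts of 12821 genes for LDPL minus DPL, the edgeR step recovered 98% of 4-fold and 66% of 2-fold changes, with 8 false calls. The simulation drew genes independently of each other and held no library that departs from the rest. In these data single libraries moved the number of calls, so these rates may not carry over.

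Genes named are the 12 largest rises and falls and the 8 smallest p in each direction (called, with a symbol, and at 5 RPKM or more on average in the higher group), up to 3 called members of each list, and 20 muscle and fat genes named whatever their result, of which 18 were tested. Genes without overlap between the groups, and further list members that complete a count, were named after their values were seen. The comparison, the gene lists and this rule were chosen with earlier results of these data known. That the libraries came from separate pigs rests on the labels, and otherwise p-values would measure only the spread between samples. No pair of libraries of a group agreed within sampling noise (smallest chi-square per degree of freedom 33.7). Promoter sequences were not used here. Some genes that the naming rule selects are not reported here.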

Additional observations from a re-analysis of the deposited data

Results flagged for a closer look

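In a group of 8 libraries, a single library far from the others was found for 15 of 206 groups and measures examined (7.28%), where chance gives about 1 in 20. LDPL 10 was the low library for NDUFA9 at 86.8 CPM, NDUFA10 at 54.3 CPM, MDH2 at 341 CPM and HADHA at 179 CPM, and the high library for KIT at 4.18 CPM. Without it the adjusted p was 0.0351 for NDUFA9, 0.0573 for NDUFA10, 0.0773 for MDH2, 0.0335 for HADHA and 0.0615 for KIT. DPL 23 was the high library for NDUFV1 at 159 CPM, UQCRC1 at 449 CPM and COX4I1 at 949 CPM. Without it the adjusted p was 0.00492 for NDUFV1, 0.0159 for UQCRC1 and 0.101 for COX4I1.

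LDPL 5 was the low library for PLIN5 at 0.867 CPM, and without it the log2 change was -1.23 with an adjusted p of 0.0821. LDPL 4 was low for EXD2 at 1.61 CPM (adjusted p = 0.0706 without it) and for the median coverage of long genes at 93.11%, where the next LDPL library was at 94.72%. DPL 19 was low for CAPN6 at 4.69 CPM (adjusted p = 0.0422 without it) and high for NR1H3 at 36.0 CPM (adjusted p = 0.0165 without it). DPL 21 was low for 2 genes that were not called with or without it, MSTN at 3.49 CPM and MXD3 at 0.363 CPM.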

How the results depend on the processing

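None of the 366 calls was reversed in the 16 fits that left out 1 library or in the 9 others. These genes were called in the same libraries, so reversals were unlikely from the start. Of the 366 genes, 40.7% to 84.4% were called again with 1 library left out. The share was 43.2% with the 16 libraries alone and 38.3% with limma on log2(RPKM + 1). The number of calls did not hold. Genes called higher were 270 with DESeq2, 85 with the 16 libraries alone and 109 with voom library weights, against 166, and 69 to 207 with 1 library left out. Genes called lower were 347 with DESeq2, 130 without the filter, 93 with the 16 libraries alone, and 51 and 53 with limma on log2(RPKM + 1) and log2(RPKM + 0.1), against 200, and 82 to 235 with 1 library left out. The libraries whose absence moved a count by over 1.5 times were LDPL 5 (69 higher, 82 lower), LDPL 10 (87 and 87), DPL 21 (110 higher), LDPL 9 (129 lower) and LDPL 14 (119 lower). The fit over 16 libraries has fewer samples behind its spread, and the fit without the filter adjusts over 17930 genes. The causes of all these shifts were not tested. The mitochondrial share differed by -9.69 to -7.37 percentage points and coverage by 0.347 to 0.796 points with 1 library left out, each on the same side of the threshold. Reversed signs were found in 4 uncalled genes: UCP3 ranged from -0.034 to 0.24, MYH3 from -0.68 to 0.018, FASN from -0.088 to 0.31 and PPARGC1A from -0.63 to 0.44 with 1 library left out, and PPARGC1A was 0.215 and 0.246 with limma on the RPKM values, 0.263 with voom weights and 1.06 without the 4 libraries of lowest coverage. Of 86 called genes named by the rule or added after their values were seen, 49 kept their call in all 16 fits. No paired analysis was possible because LDPL and DPL share no replicate number. The depth leaves genes near 1 CPM with few reads, and 2-fold changes were recovered at 66% in the simulation of independent genes.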
